A study of Homo sapiens with 10 samples.

Results

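T24R2 cells expressed 52 genes that were at or near zero reads in the parental T24 cells and that belong to none of the gene families left aside here. These 52 genes, of 61533 in the deposited tables, were selected on their counts: 3 or fewer in each of the 5 T24 libraries and 30 or more in each of the 5 T24R2 libraries, without UNC5A, AP1M2 and symbols starting with MAGE, SPANX, GAGE, PAGE, XAGE, CT45A, SSX, HOX, COL or ZNF. The exclusion removed 7 of 59 genes that met the counts, namely UNC5A, AP1M2 and 5 SPANX genes. The difference between the lines in these genes is therefore how they were chosen and not a finding, and it carries no test. What the rule did not use is what the genes encode, their level within T24R2, their promoters, their position, and the behavior of their relatives and neighbors.

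T24 is a human bladder cancer cell line, and T24R2 was derived from it by repeated exposure to cisplatin, a platinum drug that crosslinks DNA. RNA-seq libraries were made from 5 replicates of each line on day 3 of culture, in RPMI with fetal bovine serum. T24R2 stocks are kept in cisplatin according to the methods, whereas the labels list the medium without drug, so line and drug exposure cannot be told apart. T24R2 is 1 derived line, and the labels do not say whether replicates were separate cultures, so each p-value below measures the spread between these libraries and may reflect technical spread alone.

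T24 libraries held between 9257843 and 10247941 counts and T24R2 libraries between 9591379 and 10840954, and no library stood apart in depth. In pairwise comparisons of counts over genes, T24R2 library 3 stood apart from the other T24R2 libraries, with a chi-square per degree of freedom of 4.19 to 7.04 against 2.01 to 3.53 among the others. Of the 16181 genes tested, 4027 were called higher in T24R2 (24.9%) and 4282 lower (26.5%), where a call needs an edgeR adjusted p under 0.05 and a log2 fold change beyond 0.5 in either direction. Without scaling beyond library size the shares were 32.2% and 21.2%, and the median log2 fold change of all tested genes moved from 0.01 to 0.18. The counting rule itself, before any family was set aside, held for 59 of these genes (0.365%). Of 17 urothelial markers, 10 were tested and all 10 were lower in T24R2 (9 without scaling, where KRT8 was not called), and their summed CPM (counts scaled to the same library size) lay between 5100 and 5810 in T24 and between 3030 and 3230 in T24R2. The keratins KRT7, KRT8 and KRT18 remained abundant in both lines, whereas KRT19 fell from 267 ± 7.23 to 0.0887 ± 0.124 CPM (SD, n = 5). KRT19, GATA3, GRHL3 and ELF3 had at most 3, 5, 2 and 4 counts in T24R2. They passed the count filter through T24 and could not be called higher. Leukocyte markers summed to between 1.6 and 2.69 CPM in T24 and between 0.59 and 3.07 CPM in T24R2, and none of the 10 reached the count filter.

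A gene that is silent in one line and transcribed in a derivative is usually described in terms of its promoter and of the chromatin around it. Promoters rich in CpG dinucleotides can be shut by DNA methylation, and promoters poor in them tend to depend on tissue-specific factors. In bulk RNA, fewer cells that express a gene and less RNA per cell cannot be told apart.

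The 52 genes were low even in T24R2. Mean CPM, scaled to TMM library sizes, spanned 3.17 to 43.4 with a median of 6.30, and together the genes took 0.0522% to 0.0545% of the counts of a T24R2 library. Summed over the genes, T24 libraries held 24 to 47 counts and T24R2 libraries 5231 to 5659. Corrected for length as TPM (counts per kilobase of exon, scaled to a fixed sum per library), the median was 4.32, against 16.6 for all tested genes, and the median gene stood at the 20.6th percentile of the tested genes in T24R2. All 52 passed the count filter, which they could do through T24R2 alone.

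**Figure D1:**
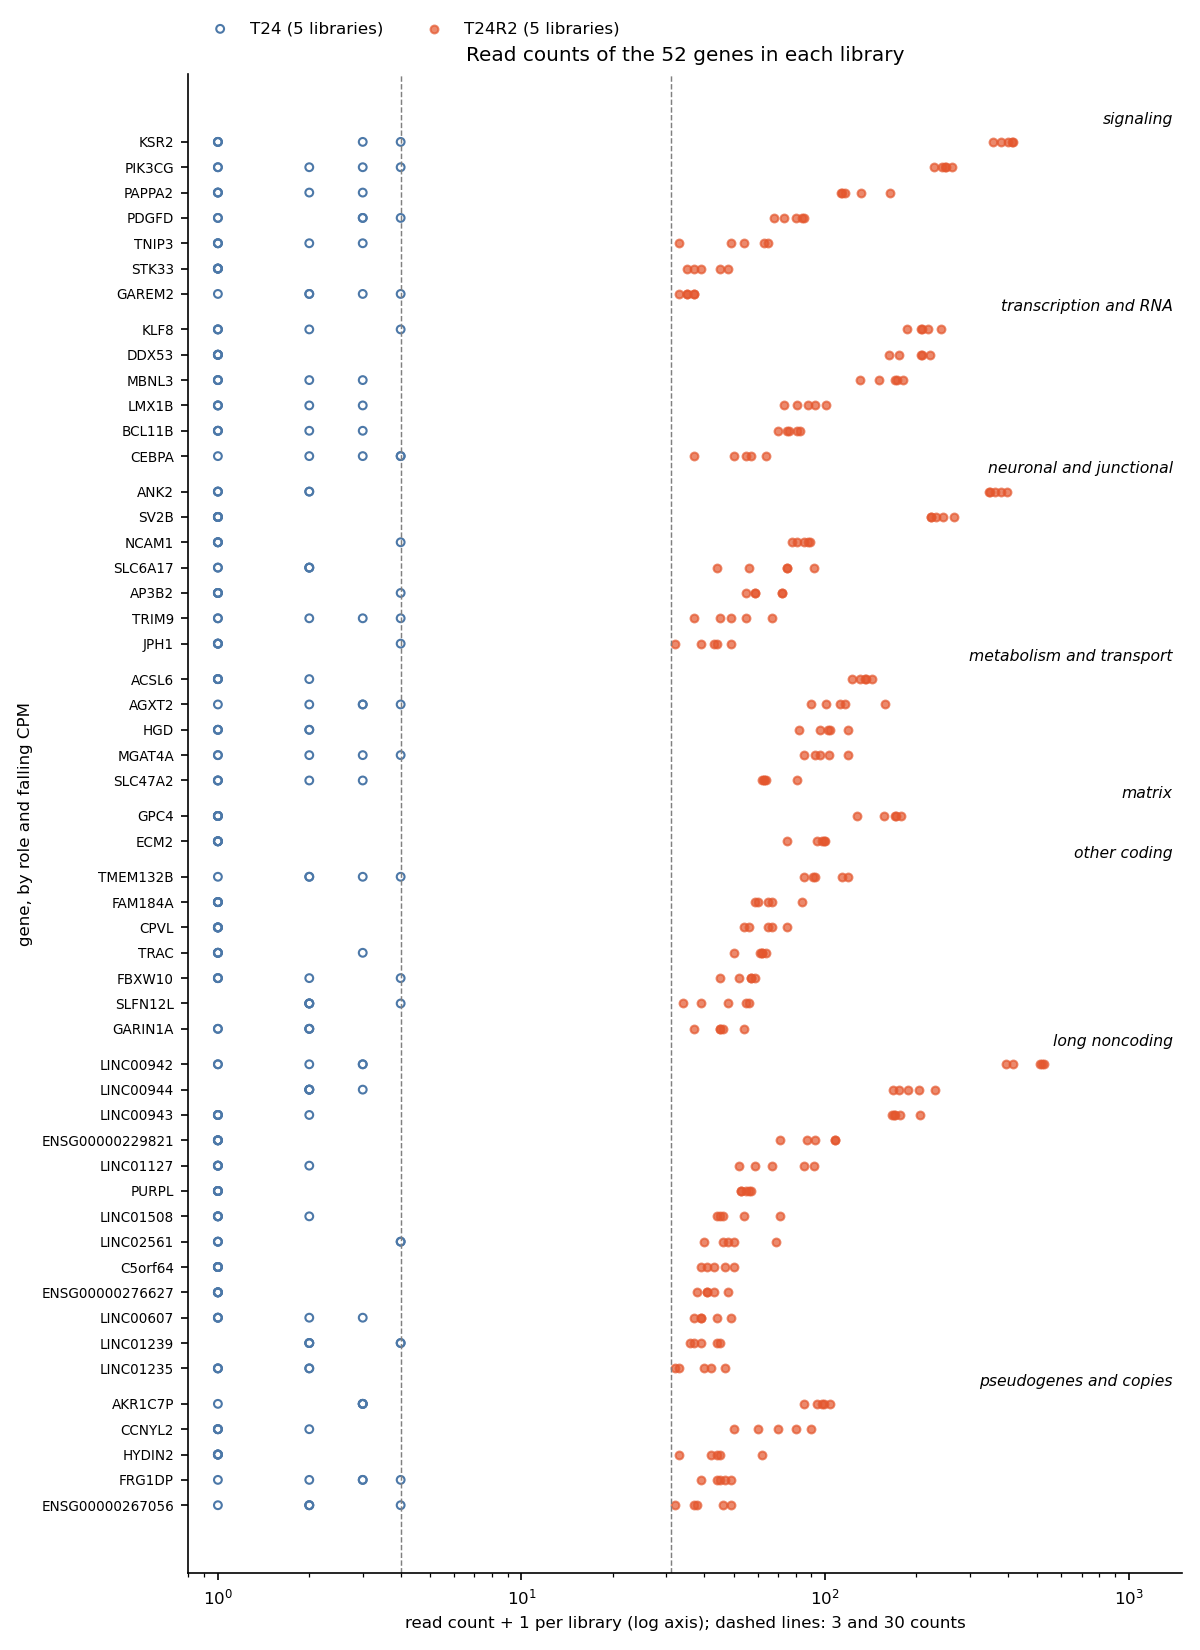
Read counts plus 1 of the 52 genes in each library on a log axis, with open blue circles for the 5 T24 libraries and filled red circles for the 5 T24R2 libraries, grouped by the role of the product. The dashed lines mark the limits of 3 and 30 counts that chose the genes, so the gap between the lines is set by the rule, and the T24R2 values reach from 31 counts to the 526 counts of LINC00942.

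At these levels the median spread among T24R2 libraries was close to counting error, but some genes exceeded it (median chi-square per degree of freedom 1.27). The coefficient of variation had a median of 12.3%, against 12.1% for counting alone. NCAM1, with 84, 88, 80, 87 and 77 counts, had the lowest coefficient of variation (0.911%), followed by KSR2 (1.62%) and PURPL (3.54%). The spread exceeded sampling (chi-square per degree of freedom over 2) for 19 genes, and this chi-square was highest for AGXT2, at 7.73. Libraries 1 to 5 of T24R2 held the highest CPM of 10, 5, 14, 11 and 12 genes, so library 3, the one that stood apart, held the most. Without library 3 (chosen after the data were seen) the spread exceeded sampling for 13 genes, and AGXT2 was at 2.19.

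In T24 the genes differed in how close to zero they were. At 0 counts in all 5 T24 libraries stood 12 genes, namely SV2B, DDX53, GPC4, ECM2, FAM184A, CPVL, STK33, PURPL, HYDIN2, C5orf64, ENSG00000229821 and ENSG00000276627. The highest T24 total was 9 counts over the 5 libraries, in LINC01239 and CEBPA, followed by AGXT2, AKR1C7P and FRG1DP with 8 each. The limits cut through a continuous range. Just inside on the T24R2 side were LINC01235, ENSG00000267056 and JPH1, each with a lowest T24R2 library of 31 counts. Just outside were ENSG00000289384, ARHGAP25 and FRG1JP, with a lowest library of 29 counts. On the T24 side, SCN8A, GRIK4 and SPAAR missed by 1 count, at a highest T24 library of 4 counts. In all, 9 genes missed by 1 T24 count and 14 had a lowest T24R2 library of 25 to 29 counts.

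The GENCODE types were 33 protein-coding genes (63.5%), 13 long noncoding RNAs (25%) and 6 others, against 76.7% coding and 18.2% noncoding among tested genes. The coding genes were long: the median gene body was 87.1 kb, against 33.9 kb for tested coding genes and 21.5 kb for the coding genes with the opposite pattern. Their exons were also longer, with a median of 7672 bases against 5427, and longer exons make it easier to reach 30 counts at a given level. The opposite pattern, 30 or more counts in T24 and 3 or fewer in T24R2, held for 114 genes outside the same families, and those reached 672 CPM in T24.

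Promoters were read from the RefSeq table of GRCh38.p14, 250 bases before to 50 bases after an annotated start. An entry was found for 34 of the 52 genes, and 31 had a start within 1000 bases of the gene start in the deposited tables, which was the window used. Whether these starts are the ones used in T24R2 was not measured. The windows were most frequent at the low end of the CpG range, and the rest spread widely. CpG counts ran from 0 in ECM2 to 50 in CEBPA with a median of 11, against 27 for the 9571 tested genes with a start. Promoters dense in CpG (ratio of observed to expected CpG of at least 0.6 and GC of at least 50%) made up 15 of 31 (48.4%), against 81.7% of tested genes, 60.8% of all 16424 genes with a start, and 53.6% of the genes with the opposite pattern.

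To show the range of CpG counts, the 250 bases before the start are printed for 5 of the genes. Each is given 5′ to 3′ on the strand of its gene, in lower case with every CpG in capitals. KSR2 (chr12:117968991-117969240, minus strand) held 30 CpG in these bases and GPC4 (chrX:133415490-133415739, minus strand) held 32. DDX53 (chrX:22999710-22999959, plus strand) held 12, LINC00942 (chr12:1500241-1500490, plus strand) held 8 and PAPPA2 (chr1:176462925-176463174, plus strand) held 2.
KSR2: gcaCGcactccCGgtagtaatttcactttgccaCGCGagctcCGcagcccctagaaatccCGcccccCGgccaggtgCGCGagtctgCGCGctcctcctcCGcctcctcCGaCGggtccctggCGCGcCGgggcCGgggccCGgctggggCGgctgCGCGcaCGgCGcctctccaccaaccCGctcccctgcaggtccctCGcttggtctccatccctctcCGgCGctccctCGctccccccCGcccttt
GPC4: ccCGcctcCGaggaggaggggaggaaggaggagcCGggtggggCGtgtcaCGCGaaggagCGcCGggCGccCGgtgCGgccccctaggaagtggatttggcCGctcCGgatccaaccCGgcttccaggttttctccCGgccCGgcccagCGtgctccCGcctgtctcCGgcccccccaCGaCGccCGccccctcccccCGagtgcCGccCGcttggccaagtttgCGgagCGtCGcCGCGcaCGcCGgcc
DDX53: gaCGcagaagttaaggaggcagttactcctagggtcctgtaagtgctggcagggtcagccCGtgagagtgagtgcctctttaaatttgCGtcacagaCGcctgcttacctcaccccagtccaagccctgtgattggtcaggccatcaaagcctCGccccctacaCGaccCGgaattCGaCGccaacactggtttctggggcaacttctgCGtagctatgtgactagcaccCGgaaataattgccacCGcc
LINC00942: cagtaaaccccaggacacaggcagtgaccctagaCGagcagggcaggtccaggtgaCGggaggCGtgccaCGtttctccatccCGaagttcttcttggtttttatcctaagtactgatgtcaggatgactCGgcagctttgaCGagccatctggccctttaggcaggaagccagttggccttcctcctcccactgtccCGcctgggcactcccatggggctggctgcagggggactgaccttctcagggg
PAPPA2: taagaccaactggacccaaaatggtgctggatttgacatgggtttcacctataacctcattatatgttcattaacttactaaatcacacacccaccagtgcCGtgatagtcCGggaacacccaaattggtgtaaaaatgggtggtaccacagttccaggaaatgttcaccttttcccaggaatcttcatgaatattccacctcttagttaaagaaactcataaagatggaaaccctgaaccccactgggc

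**Figure D2:**
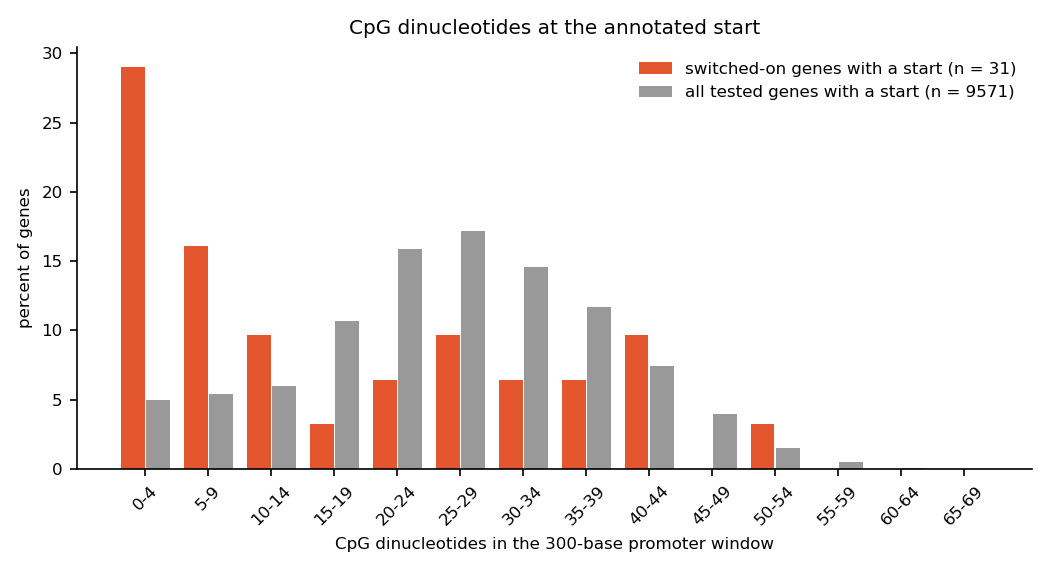
Percent of genes by the number of CpG dinucleotides in the 300-base window around the annotated start, with red bars for the 31 switched-on genes that have a start and gray bars for the 9571 tested genes that have one. The switched-on genes pile up at 0 to 4 CpG (29%), where the tested genes have 4.96%, and the rest spread up to 50.

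Short motifs were searched on both strands of the same 300-base windows, and a match describes letters only. The GC box GGGCGG was present in 14 of 31 windows (45.2%), against 71.3% of tested genes and 56.1% of all genes with a start, and the 14 included KSR2, SV2B, KLF8, GPC4, LMX1B and CEBPA. CGGAAG, the core of ETS sites, was in 3 windows (9.68%), those of PIK3CG, FAM184A and LINC02561, against 33.5% and 24.5%. The CCAAT box was in 9 windows (29%), against 36.9% of tested genes. TGACNNNGC, the core of the antioxidant response element, was in 4 windows (12.9%), those of LINC00942, DDX53, ACSL6 and LINC01508, against 15.4%. GGGCGG and CGGAAG themselves hold a CpG, so their shares move with the CpG counts.

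By role, 7 of the genes encode signaling proteins. KSR2, a scaffold that brings RAF, MEK and ERK together, was the second most abundant of the 52, with 399, 415, 378, 411 and 358 counts in T24R2 libraries 1 to 5 and 3, 0, 0, 0 and 2 in T24. That is 36.1 ± 0.586 CPM, and the ratio of summed counts, divided by the ratio of TMM library sizes, was 336 (95% exact interval 144 to 1040, counting error only). The ratio uses the counts that chose the gene, so it and its interval are description and test nothing. Its paralog KSR1 did not pass the test, at 11.2 ± 0.871 CPM in T24 and 10.4 ± 0.767 in T24R2 (edgeR adjusted p = 0.46).

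PIK3CG encodes the p110γ catalytic subunit of phosphoinositide 3-kinase, which acts below G protein-coupled receptors and is best known from leukocytes. It had 228, 261, 247, 241 and 250 counts in T24R2 and 2, 3, 0, 1 and 0 in T24, a gap that the selection fixed. The other class I catalytic subunits moved the opposite way: PIK3CA, PIK3CB and PIK3CD were lower in T24R2 by log2 fold changes of -0.94, -0.79 and -0.91 (SE 0.08, 0.08 and 0.05). The regulatory partners of p110γ did not accompany it. PIK3R6 fell from 7.91 ± 1.17 to 0.0708 ± 0.073 CPM (edgeR adjusted p = 5.6e-19), and PIK3R5 had at most 3 counts in any library.

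PAPPA2, a secreted protease that cleaves insulin-like growth factor-binding proteins, had 163, 115, 112, 130 and 113 counts in T24R2 and 0, 0, 1, 2 and 0 in T24. Library 1 was the highest. Its paralog PAPPA had 2.14 ± 0.727 CPM in T24 and 0.0554 ± 0.0507 in T24R2, a log2 fold change of -4.99 (edgeR adjusted p = 1.3e-10). Of the stanniocalcins, secreted inhibitors of these proteases, STC1 fell with a log2 fold change of -9.12 and STC2 rose with one of 1.13 to 508 ± 22.9 CPM.

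PDGFD, a ligand of the platelet-derived growth factor receptor β, had 83, 79, 84, 72 and 67 counts in T24R2 and 0, 2, 2, 3 and 0 in T24. The 3 other ligands were lower in T24R2. PDGFA changed by -1.71, PDGFB by -2.03 and PDGFC by -1.38 on the log2 scale. The receptor gene PDGFRB had 3.43 ± 0.626 CPM in T24 and 0 counts in every T24R2 library (edgeR adjusted p = 1.2e-13), and PDGFRA had 0 counts in T24 and at most 7 in T24R2.

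The remaining signaling genes were lower. TNIP3, an inhibitor of NF-κB activation that binds the protein A20, had 48, 62, 32, 53 and 64 counts in T24R2. Its relative TNIP1 was lower in T24R2, with a log2 fold change of -1.16. The kinase STK33 had 34 to 47 counts, at least 11-fold above the floor of 3 counts per T24 library, and GAREM2, an adaptor of growth factor receptors, had 32 to 36.

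Transcription factors and RNA-binding proteins numbered 6. KLF8, a Krüppel-like factor, had 206, 208, 240, 218 and 185 counts in T24R2 and 0, 0, 0, 1 and 3 in T24, and its relative KLF3 was lower in T24R2, with a log2 fold change of -0.55, but not called without scaling (-0.39) or with upper-quartile scaling (-0.48). LMX1B, a LIM homeodomain factor of limb, kidney and brain development, had 72 to 100 counts. BCL11B, a zinc finger factor of T cells, had 69 to 82 counts, and its paralog BCL11A was higher too, from 0.0426 ± 0.0584 to 2.21 ± 0.734 CPM (edgeR adjusted p = 1.3e-10). BCL11A had at most 1 count in T24, so it passed the count filter through T24R2 and could not be called lower. It reached 35 counts in its highest T24R2 library but was below 30 in another, so it was not among the 52.

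CEBPA, a basic leucine zipper factor of myeloid cells, liver and fat, had 54, 56, 49, 63 and 36 counts in T24R2 and 0, 3, 1, 3 and 2 in T24. Other genes of its family were already expressed in T24. CEBPB and CEBPG rose with log2 fold changes of 0.79 and 0.70, CEBPD fell with one of -0.88, and CEBPE had 0 counts in all 10 libraries. Of the exon bases of CEBPA, 43.9% are overlapped by genes on the opposite strand. Counting used a strand-specific setting, but the kit is not described as stranded, and whether reads of those genes are included in the counts of CEBPA was not tested.

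MBNL3, a muscleblind splicing regulator, had 150, 169, 129, 172 and 180 counts in T24R2 and 1, 0, 0, 2 and 0 in T24. MBNL1 and MBNL2 were expressed in both lines and were not called, with log2 fold changes of -0.01 and 0.29. DDX53, a DEAD-box helicase normally confined to testis, had 206, 220, 161, 207 and 174 counts in T24R2 and none in T24, at least 55-fold above the T24 floor. Its closest relative DDX43 had at most 6 counts in T24 and 16 in T24R2 and was not tested. Of 60 other germline genes listed, 35 had 3 or fewer counts in every library, and of the 5 tested 2 were higher, SYCE2 and MEI1, where 24.9% of all tested genes were.

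Another 7 genes encode proteins of neurons or of membrane junctions. ANK2, or ankyrin-B, which ties membrane proteins to the spectrin skeleton, had 345, 349, 380, 398 and 362 counts in T24R2 and 2 counts in all of T24. ANK3 was also higher, at 4.53 ± 0.684 CPM in T24 and 47.8 ± 2.79 in T24R2 (log2 fold change 3.40), and ANK1 was not called. Corrected for its exon length, the 33.9 CPM of ANK2 came to 2.20 TPM, the 11.9th percentile of tested genes.

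SV2B, a glycoprotein of synaptic vesicles, had 231, 244, 223, 266 and 223 counts in T24R2 and none in T24, at least 67-fold above the floor. SV2A went the other way, from 10.0 ± 1.22 to 0.218 ± 0.24 CPM (log2 fold change -5.43), and SV2C had 0 counts throughout. NCAM1, the neural cell adhesion molecule, had 77 to 88 counts and 3 in all of T24, and NCAM2 had at most 3 counts in any library. The vesicular amino acid transporter SLC6A17 had 74, 74, 91, 55 and 43 counts, a spread above sampling (chi-square per degree of freedom 5.22). AP3B2, a neuronal subunit of an adaptor complex, had 54 to 71 counts, the ubiquitin ligase TRIM9 had 36 to 66 and the junctophilin JPH1 had 31 to 48. JPH2 was higher as well, with a log2 fold change of 1.84.

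NCAM1 is the single gene of the 52 on a list of 26 neuronal genes. Of the 8 other tested genes on it, 6 were higher in T24R2 and 2 lower, against 24.9% and 26.5% of all tested genes, and their median log2 fold change was 2.05 against 0.01. NRCAM had 0.348 ± 0.234 CPM in T24 and 18.4 ± 1.82 in T24R2, and L1CAM 144 ± 8.85 and 516 ± 18.6. SNAP25 and NRXN3 fell by 4.2 and 7.97 on the log2 scale, and 12 of the 26 genes had 3 or fewer counts in every library. SYP, ELAVL2, SCG2 and NRCAM, all higher, had at most 10, 9, 9 and 5 counts in T24 and passed the count filter through T24R2. SNAP25 and NRXN3 had at most 2 counts in T24R2 and passed through T24. The shares on this list were thus set in part by the filter.

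Enzymes and transporters made up 5 genes. ACSL6, which attaches coenzyme A to long-chain fatty acids, had 135, 122, 129, 134 and 142 counts in T24R2 and 1 in all of T24. Its family shifted in both directions: ACSL3 and ACSL4 rose with log2 fold changes of 0.88 and 0.72, ACSL5 fell from 33.4 ± 2.68 to 1.61 ± 0.393 CPM, and ACSL1 was not called. AGXT2, a mitochondrial aminotransferase of kidney and liver, had 89, 100, 157, 111 and 115 counts, with library 3 the highest. Its chi-square per degree of freedom was the highest of the 52. The T24 libraries had 2, 1, 2, 0 and 3.

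HGD, the homogentisate dioxygenase of tyrosine breakdown, had 95, 81, 103, 101 and 118 counts in T24R2 and 2 in all of T24. MGAT4A, which adds branches to N-glycans in the Golgi, had 84 to 118 counts, while MGAT4B was lower in T24R2, with a log2 fold change of -0.98. SLC47A2, or MATE2, an exporter of organic cations in the kidney, had 80, 62, 63, 61 and 62 counts in T24R2 and 1, 0, 0, 2 and 0 in T24, that is 6.06 ± 0.791 CPM. Its paralog SLC47A1 had 0 counts in T24 and at most 2 in T24R2.

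At the cell surface and in the matrix, GPC4, a glypican that carries heparan sulfate, had 155, 177, 170, 169 and 126 counts in T24R2 and none in T24. GPC1 was lower in T24R2, with a log2 fold change of -0.77, GPC2 was not called, and GPC3 had 0 counts in T24 and at most 14 in T24R2. The matrix protein ECM2 had 74 to 99 counts and none in T24. It lies inside CENPP on the opposite strand, which was not called.

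The 7 other coding genes were TMEM132B, FAM184A, CPVL, TRAC, FBXW10, SLFN12L and GARIN1A. TMEM132B had 84 to 118 counts in T24R2 and 0 to 3 in T24, while TMEM132A was lower in T24R2 (log2 fold change -2.39). TRAC, the constant segment of the T cell receptor α chain, had 49, 61, 60, 63 and 61 counts in T24R2 and 0, 2, 0, 0 and 0 in T24. The genes it works with were near zero: CD3D, CD3G and CD247 had 0 counts in all 10 libraries, CD3E at most 3, and TRBC2 fell from 3.39 ± 1.19 CPM to 0 counts in T24R2. FAM184A had 58 to 83 counts and the carboxypeptidase-like CPVL 53 to 74, both with none in T24.

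Over all listed relatives, 75 genes related to 32 of the 52 by family or complex, 49 were tested. Of these, 13 were higher in T24R2 (26.5%, against 24.9% of all tested genes) and 19 lower (38.8%, against 26.5%), with 17 not called. The share called higher was thus near that of all tested genes. Another 19 had 3 or fewer counts in all 10 libraries. Tested relatives near zero in 1 line, such as BCL11A, AKR1C4, PIK3R6 and PDGFRB, passed the count filter through the other line. Such relatives could be called in 1 direction only. The relatives were picked after the 52 genes and earlier results of these data were known.

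**Figure D3:**
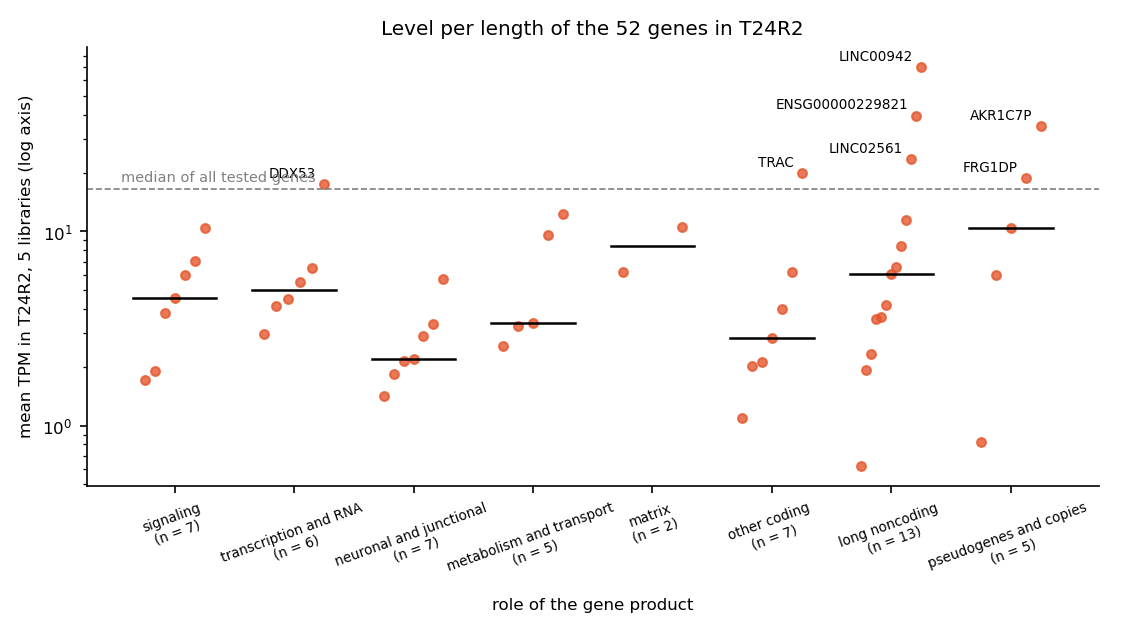
Mean TPM in T24R2 (5 libraries) of each of the 52 genes on a log axis, by the role of the product, with black lines at the median of each role and a dashed line at the median of all tested genes. Only 7 genes lie above the median of 16.6 TPM, and 3 of them are long noncoding RNAs.

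Long noncoding RNAs were 13 of the genes and held the highest level. LINC00942 had 526, 511, 393, 516 and 414 counts in T24R2 and 0, 0, 2, 2 and 1 in T24, that is 43.4 ± 4.2 CPM and 70.4 ± 6.86 TPM, the 85.5th percentile of tested genes. The ratio of summed counts, scaled to library size in the same way, was 404 (95% exact interval 173 to 1250, counting error only). It too uses the counts that chose the gene and tests nothing. The T24R2 counts of LINC00942 spread beyond sampling (chi-square per degree of freedom 4.31), which the interval leaves out. It lies on the short arm of chromosome 12 between ERC1, 4.59 kb away and not called (log2 fold change 0.03), and WNT5B. WNT5B, a secreted Wnt ligand 25.5 kb away, rose from 17.7 ± 2.20 to 138 ± 8.12 CPM (edgeR adjusted p = 6e-32).

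LINC00943 and LINC00944 overlap each other on opposite strands far along the long arm of chromosome 12. LINC00943 had 169, 168, 204, 165 and 176 counts in T24R2 and 1 in all of T24, and LINC00944 had 203, 229, 186, 167 and 174 and 6. They share 21.6% and 34.8% of their exon bases, so part of these counts could belong to either gene. Their nearest tested neighbors, AACS and LINC02376, lay 502 to 1590 kb away and were not called.

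ENSG00000229821 had 107, 107, 70, 92 and 86 counts in T24R2 and none in T24. It lies inside IGFN1, whose opposite strand overlaps 11.5% of its exon bases and which rose from 1.03 ± 0.515 to 142 ± 27.3 CPM. PURPL, an RNA known as a target of p53, had 52 to 56 counts and none in T24, and its nearest tested neighbors lay 2570 and 3700 kb away. LINC01127, between MAP4K4 and IL1R1, had 84, 66, 51, 58 and 91 counts, and IL1R1, the interleukin-1 receptor, rose from 2.81 ± 1.21 to 12.7 ± 0.704 CPM. The others, LINC01508, LINC02561, C5orf64, ENSG00000276627, LINC00607, LINC01239 and LINC01235, had between 31 and 70 counts per library.

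Pseudogenes and gene copies made up 5, and reads shared with a near-identical copy make their counts uncertain. AKR1C7P, a copy within the aldo-keto reductase 1C cluster of chromosome 10, had 103, 98, 93, 97 and 84 counts in T24R2 and 2, 0, 2, 2 and 2 in T24. LINC02561 lies 3.94 kb from it. Around this pair 3 functional genes were higher: AKR1C1 rose from 73.3 ± 11.7 to 375 ± 10.9 CPM, AKR1C3 from 25.3 ± 3.28 to 289 ± 12.3, and AKR1C4 with a log2 fold change of 4.12. AKR1C2 was not called, with at most 49 counts in T24 and 43 in T24R2. Only uniquely mapped reads were counted, and whether reads shared with related genes lowered the counts of AKR1C2 was not tested. CCNYL2, a cyclin Y copy, had 49 to 89 counts and lies 0.131 kb from LINC00839, which rose from 0.245 ± 0.319 to 25 ± 1.55 CPM. HYDIN2 had 32 to 61 counts and FRG1DP 38 to 48. ENSG00000267056 had 31 to 48 counts and lies 0.543 kb from CYP4F11, which was higher by 2.57 on the log2 scale. On its other side, 74.3 kb away, UCA1, a noncoding RNA of urothelial cancer, fell from 65.4 ± 5.42 to 0.0173 ± 0.0388 CPM.

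The share of genes called higher in T24R2 was largest close to the 52 genes, among the 5 distance ranges compared. Of 22 tested genes less than 10 kb away, 16 were called higher (72.7%, against 24.9% of all tested genes) and none lower, with a median log2 fold change of 2.57. No gene of the 22 was lower at an unadjusted edgeR p under 0.05 (0 genes), and DESeq2 and limma-voom also called 16 higher and 0 lower. Leaving out any 1 library gave 16 or 17 called higher. Genes near zero in T24 could pass the count filter only through T24R2 and could not be lower, which set part of these shares. From 10 to 100 kb, 38 of 88 were higher (43.2%) and 19 lower (21.6%). From 100 to 500 kb the shares were 30.2% and 21.3%, from 500 to 1000 kb 34.0% and 19.8%, and from 1 to 5 Mb 28.2% and 23.5%. The share called higher on the same chromosomes, weighted by these genes, was 24.4% to 26.9% in each range.

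**Figure D4:**
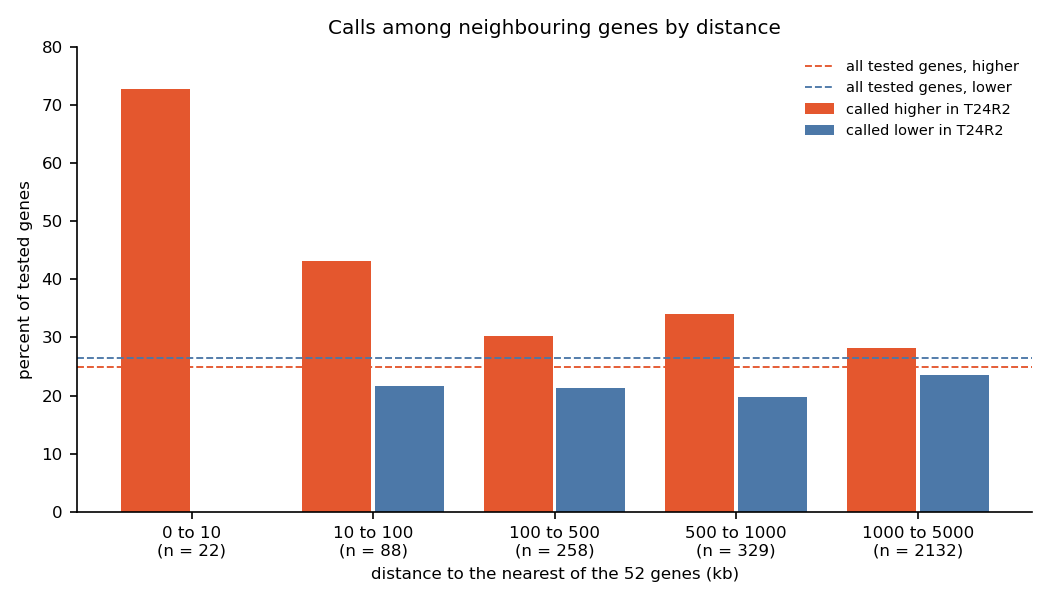
Percent of tested genes called higher (red) or lower (blue) in T24R2 by distance to the nearest of the 52 genes in kb, with the number of genes under each pair of bars and dashed lines for all tested genes. The red bar falls from 72.7% below 10 kb to 28.2% beyond 1000 kb, and there is no blue bar below 10 kb because no gene there was called lower.

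Among the 16, 7 overlap the body of one of the 52 genes and 9 do not, and 10 lie on the opposite strand. IGFN1, LINC00839, LMX1B-DT (0.228 kb from LMX1B, log2 fold change 5.40), TRIM16L next to FBXW10 (4.17), ALDH3A2 overlapping SLC47A2 (3.06), GDAP1 overlapping JPH1 (2.62) and PRLR next to AGXT2 (2.57) were among them. Of the 16, 4 had 3 or fewer counts in every T24 library themselves, and LINC00839, ENSG00000253194 and PRLR had at most 7, 8 and 9. These genes passed the count filter through T24R2 alone, as did IGFN1, whose T24 libraries ran from 0.316 to 1.73 CPM. The 6 not called were RAP2C-AS1, CENPP, TVP23B, HADHA, ERC1 and ENSG00000196656, of which RAP2C-AS1 was called higher under 2 other scalings and without T24 library 2 or T24R2 library 5. Transcripts that run on from one gene into the next and, if the strand was not kept, reads of the opposite strand would be counted here, and their part in these shares was not tested.

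Taking the nearest tested gene on each side gave 96 genes, of which 40 were higher (41.7%) and 18 lower (18.8%). The shares of all tested genes were 24.9% and 26.5%. The median log2 fold change of the 96 was 0.23. Here too, genes near zero in T24 passed the count filter only through T24R2 and could not be lower, which set part of these shares. LINC02577, PRKAR2B and ENSG00000227486, named below, had at most 12, 8 and 2 counts in T24 and passed through T24R2. In the other direction, ULK2 passed through T24. Both neighbors were higher for 11 of the 52 genes, 1 of them for 20 and neither for 21. Next to PIK3CG both rose: LINC02577 from 0.90 ± 0.266 to 20.1 ± 1.82 CPM and PRKAR2B, a regulatory subunit of protein kinase A, with a log2 fold change of 3.24. Near KLF8, ENSG00000227486 was higher with a log2 fold change of 3.08. Beside SV2B, 551 kb away, the transporter gene SLCO3A1 was lower at -0.98, and beside DDX53 FAM3C2P was lower at -1.12. ACSL6 stood between FNIP1, which rose with a log2 fold change of 1.15, and CSF2, which fell from 33.5 ± 4.44 to 2.04 ± 0.427 CPM. SLC47A2 likewise lay between ALDH3A2 and ULK2, and ULK2 had 13.2 ± 1.58 CPM in T24 and 0 counts in every T24R2 library. The nearest tested genes on either side of KSR2, ANK2, LINC00943, LINC00944 and MBNL3 were not called. However, ENSG00000255686, which overlaps KSR2 on the opposite strand, was higher (log2 fold change 7.34, edgeR adjusted p = 2e-10). This gene had 0 counts in every T24 library, so it passed the count filter through T24R2 and could not be called lower. Whether reads of KSR2 are included in its counts was not tested.

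For the 114 genes with the opposite pattern, the shares mirrored these. Within 10 kb of them, 38 of 77 tested genes were lower in T24R2 (49.4%, against 26.5% of all tested genes) and 11 higher (14.3%). From 10 to 100 kb, 31.1% were lower and 19.2% higher. Here genes near zero in T24R2 could pass the count filter only through T24. The difference between the 2 gradients was not tested.

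The 52 genes were spread over the genome. With gaps under 500 kb between gene bodies, 4 genes formed 2 pairs, LINC02561 with AKR1C7P and LINC00943 with LINC00944. Gaps of up to 1 Mb added FBXW10 with SLC47A2 on chromosome 17 and MBNL3 with GPC4 on the X chromosome. Chromosomes 9 and 12 carried 5 genes each (9.62% each, against 4.01% and 5.29% of tested genes), and chromosomes 1, 2, 5 and X carried 4 each. The 4 on the X chromosome, KLF8, DDX53, MBNL3 and GPC4, were all among the 11 most abundant. Chromosomes 13, 16, 18, 21 and 22 carried none, and the numbers are too small to separate chromosomes.

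**Figure D5:**
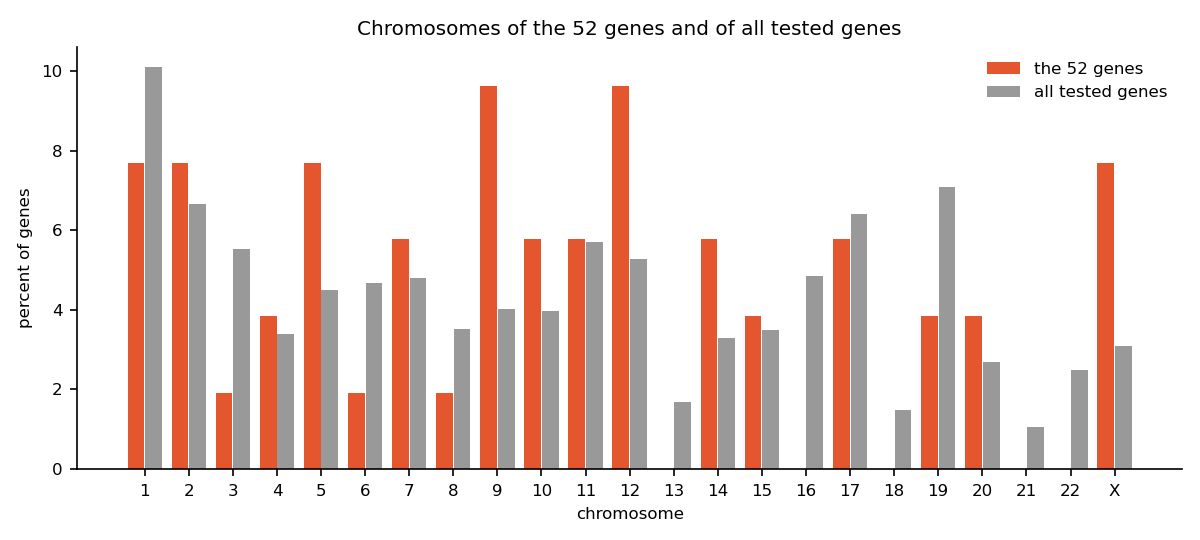
Percent of the 52 genes (red) and of all 16181 tested genes (gray) on each chromosome. The 52 genes reach 9.62% on chromosomes 9 and 12, which is 5 genes each, and 0% on chromosomes 13, 16, 18, 21 and 22.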

How the data were processed

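RNA-seq libraries of T24 (5) and T24R2 (5), prepared with a NEBNext Ultra II kit and paired-end sequencing, were used as the authors deposited them, as raw counts per gene. According to the study's methods and the submitters' processing notes, the authors used STAR 2.7.0 for alignment to hg38 and SAMtools 1.10 to discard duplicates and multiply mapped reads, and counted the rest on GENCODE release 39 with featureCounts 2.0.1, strand option 1, without normalization or pooling. Removing duplicates can lower abundant genes, and unique mapping can lower genes with near-identical copies. Symbols were matched by Ensembl identifier (61369 of 61533 genes) and gene types were taken from GENCODE release 44.

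Counts were tested in R 4.3.3 with edgeR 4.0.16 (filterByExpr, TMM, quasi-likelihood test, Benjamini-Hochberg adjustment over 16181 genes). CPM used TMM library sizes, and TPM used exon lengths in the tables. DESeq2 1.42.0 and limma-voom 3.58.1 were alternatives, along with other scalings, no count filter, a replicate block, other limits and leaving out each library. Exon overlaps used bedtools 2.31.1, and other steps Python 3.11.15 with pandas 2.3.3, numpy 2.4.6, SciPy 1.17.1 and matplotlib 3.10.9. In counts simulated for T24R2 against T24, edgeR called 189 of 200 changed genes and 5 unchanged ones among 16181. The data had 4027 genes called higher and 4282 lower, far more than were changed there. The simulation therefore does not give error rates for these data.

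The 52 genes, the gene lists and the lists of relatives were chosen with earlier results of these data known. Named genes were the 30 members with the highest mean CPM, members in clusters or on a list, those nearest each limit and the called neighbors of the 10 highest. All other named genes, including the remaining members, relatives and other neighbors, were named after their values were seen. The floor for folds was 3 counts per T24 library, and intervals were exact binomial at 95%. Floors and intervals cover counting error only, since no molecular identifiers are described, and they do not allow for the selection.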

Additional observations from a re-analysis of the deposited data

Results flagged for a closer look

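In each group of 5 libraries, the gap between the most extreme library and its nearest neighbor was divided by the range, and values above 0.71 were marked. This marked 14 of 187 groups, and chance alone marks about 1 in 20. The T24 counts of the 52 genes, which are 0 to 3 reads by the rule, were left out.

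Of the 52 genes, KLF8 was marked in T24R2 (0.722), where library 3 had 23 CPM and the others 18 to 19.4. LINC02561 was marked there too (0.719), with 6.24 CPM in library 1 and 3.83 to 4.51 in the others. Both lay far above the T24 limit in every T24R2 library.

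Among relatives and neighbors, the value was 0.826 for PIK3CA in T24, with 45.9 CPM in library 2 and 56.7 to 59.0 in the others. It was 0.727 for PDGFA in T24R2 (library 2), 0.719 for PDGFC in T24 (library 5), 0.779 for CEBPD in T24R2 (library 5) and 0.735 for MBNL1 in T24R2 (library 1). For MBNL2 in T24 (library 4) it was 0.770, for SYCE2 in T24 (library 3) 0.897, for ACSL4 in T24R2 (library 1) 0.773 and for TMEM132A in T24R2 (library 1) 0.718. WNT5B in T24R2 (library 1) had 0.716, AACS in T24 (library 3) 0.714 and LINC00839 in T24 (library 3) 0.731. The calls of these 12 relatives and neighbors did not change when any 1 library was left out.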

How the results depend on the processing

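The number of switched-on genes followed the limits. It was 12 with 0 counts in T24, 133 with up to 10, 166 with 10 or more counts in T24R2, 13 with 100 or more and 32 with limits in CPM (at most 0.3 and at least 3). The opposite pattern gave 44, 218, 230 and 47 genes under the first 4 of these. Leaving out 1 library gave 52 to 57 switched-on genes. Without a count filter, 9 of 98 nearest genes were called lower (9.18%, against 16.6% of all genes). Within 100 kb, 94 of 235 were then higher (40.0%, against 15.9%). With the filter, a 500 kb window held 368 genes, of which 132 were higher (35.9%) and 74 lower (20.1%). The shares of all tested genes were 24.9% and 26.5%. Keeping genes on the opposite strand of the 52 (chosen after the data were seen) left 24 higher and 10 lower of 49, and the 100 genes that overlap none of the 52 kept 47 higher. Nearest genes at least 10 kb away were higher in 34.2% and lower in 22.8%, with a median log2 fold change of 0.02. The distance ranges and the genes around the opposite pattern were also chosen after the data were seen. Gaps of 1000 kb put 8 genes in clusters, and any overlap on the opposite strand counted 17 genes. In all, 183 of 200 recomputed values were within 1.5 times the reported one.

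Same-numbered libraries of the 2 lines did not deviate together (correlations -0.021 to 0.0155), so the numbers do not pair the samples. With a replicate block, 40 of 96 nearest genes were higher and 18 lower. Of 110 genes within 100 kb, 54 were higher and 18 lower. Over all tested genes this fit called 24.6% higher and 26.3% lower. For the 52 genes, the median coefficient of variation among T24R2 libraries was 12.3%, against 12.1% for counting alone. The spread exceeded sampling for 19 of them.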

Other observations

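Lists of imprinted genes and of genes of other tissues, none of which holds any of the 52 genes, give the surroundings of the switched-on set. Of 12 tested imprinted genes, 10 were lower in T24R2, among them H19 and GRB10, and the other 2 were not called (edgeR, median log2 fold change -1.0 over the 12, against 0.01 for all tested genes, of which 24.9% were higher and 26.5% lower). The fibroblast and endothelial lists had 2 tested genes each, all lower, and 1 of 11 hepatocyte genes, SERPINA1, was tested and was lower. The erythroid list had 1 gene higher, NFE4, and 1 lower, EPOR. Of the muscle genes 2 of 3 tested were higher, TTN and TNNT1, and of the melanocyte genes 1 was higher, TYRP1, and 2 lower, PMEL and MITF. H19 and the fibroblast gene PDGFRB had at most 1 and 0 counts in T24R2 and passed the count filter through T24. TYRP1 had at most 2 counts in T24 and passed through T24R2. Such genes could be called in 1 direction only, which set part of these counts.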
